A study of Mus musculus with 6 samples.

Results

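A set of 10 genes of protein and lipid uptake was followed in mouse blastocysts that had developed in the mother or in culture. These were the endocytic receptors and partners Cubn, Lrp2, Amn, Dab2 and Lrpap1 and the lipoprotein and carrier genes Apoe, Apoa1, Apob, Ttr and Mttp. All 10 were taken by symbol, with earlier results of these data known, and are 10 of the 49993 genes in the deposited count table. The 6 libraries compared were 3 from embryos that developed in vivo and 3 from embryos cultured in vitro. Donor females of both groups (strain and age not known here) received 10 IU of pregnant mare serum gonadotrophin, then 10 IU of human chorionic gonadotrophin (hCG) 48 h later, and were mated naturally. Blastocysts of the in vivo group were flushed from the uterus at day 3.5. For the in vitro group, zygotes were taken from the oviduct 19 to 21 h after hCG and cultured to blastocysts in KSOM medium at 37 °C in 5% CO2, so superovulation was shared by both groups. The labels name the material as a single inner cell mass, as blastocysts and as embryonic stem cells, and no label ties each library to a mother of its own. The p-values therefore measure the spread between these samples, which may be partly technical.

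Cubilin and megalin, the products of Cubn and Lrp2, are very large receptors that carry proteins, vitamins and lipoproteins from the outside of a cell into endosomes. Cubilin has no membrane anchor of its own and depends on amnionless, the product of Amn, to reach the surface, while Dab2 links megalin and amnionless to clathrin and Lrpap1 escorts megalin and related receptors through the endoplasmic reticulum. In the mouse embryo these receptors are best known from the visceral endoderm of the yolk sac, which descends from the primitive endoderm of the blastocyst. The same tissue later secretes lipoproteins: Apob and Apoa1 are their main structural proteins, Mttp loads lipid onto apolipoprotein B, Apoe is a ligand for their receptors, and Ttr carries thyroid hormone and retinol-binding protein.

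Library totals ranged from 6918288 to 17643429 counts. Between 16.7% and 41.7% of them fell on Rn18s-rs5, a gene of ribosomal RNA. In vivo replicates 1 and 2 were the most alike (Spearman correlation across genes 0.942), and in vivo replicate 3 reached 0.786 and 0.793 with them. In vitro replicate 2 was the only library with almost no Y-linked counts (1, against 1139 to 1693 in the others). It also had the most counts of Xist (7494, against 8 to 341 in the others). Trophectoderm markers were found in every library, with 12 markers summing to 664 to 1421 CPM (counts scaled to a common library size) in vivo and 1067 to 1819 CPM in vitro, so the libraries did not hold inner cell mass transcripts alone. Of the markers of cumulus cells, 6 of 9 were at 0 counts in all libraries, as were 5 of 9 of uterine epithelium (Ltf, Pgr, Lcn2, Cd44 and Sprr2f). The 9 uterine markers summed to 8.54 to 34.5 CPM in vivo and to 9.63 to 45.4 CPM after culture, mostly from Wfdc2 and Muc1, and Muc1 was lower in vitro without overlap (edgeR unadjusted p = 0.0285, adjusted p = 0.440).

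Cubn, Lrp2, Dab2, Lrpap1 and Apoe were found at 8.54 CPM or more in every library, whereas Apob and Mttp had at most 31 counts in any library. Per kb of gene length, the scale used here to compare genes, the in vivo order of mean levels was Lrpap1 (110 CPM per kb), Apoe (24.2), Dab2 (16.9), Apoa1 (13.7), Lrp2 (8.81), Cubn (1.44), Mttp (0.0888), Amn (0.0417) and Apob (0.0297), with Ttr at 0. The in vivo ranges of Apoe, Dab2 and Apoa1 overlapped, so the order of these neighbours is within their spread, while Lrp2 lay below all 3. In vitro, the order was Lrpap1 (74.2 CPM per kb), Dab2 (31.2), Apoe (27.7), Lrp2 (12.6), Apoa1 (5.78), Amn (4.28), Cubn (3.14), Mttp (0.324) and Apob (0.00699), and of the neighbours from Dab2 to Cubn all overlapped except Apoe and Lrp2, whose lowest and highest values were 21.6 and 17.96 CPM per kb. Lrpap1 was thus the most abundant transcript of the 10 in each of the 6 libraries. Amn was below Mttp in the in vivo order and above Cubn in the in vitro order.

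**Figure D1:**
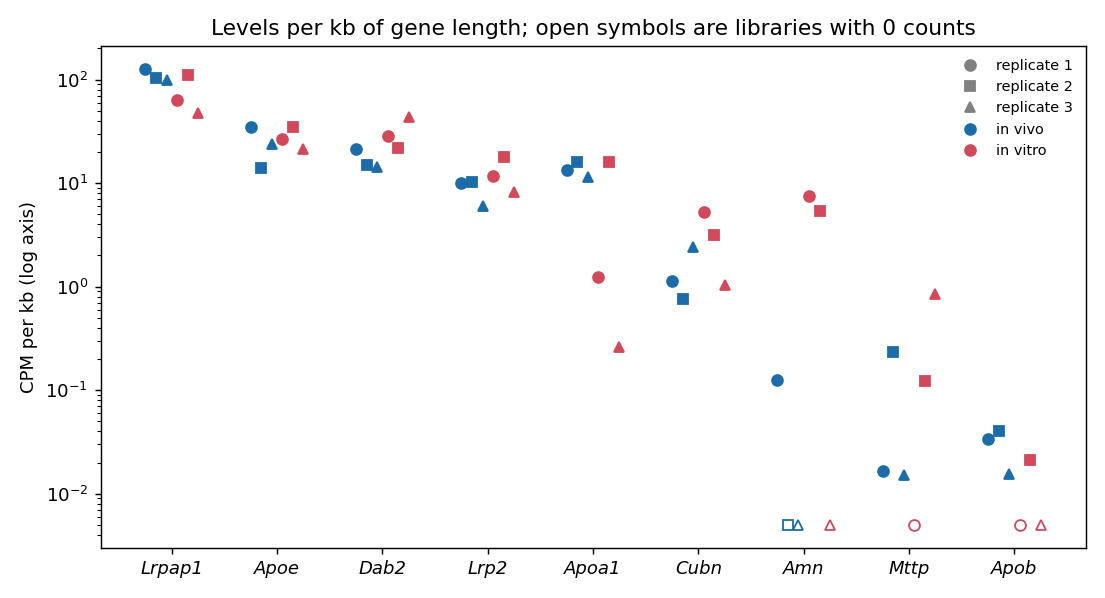
Level of each gene in each library in CPM per kb of gene length on a log axis, ordered by the mean over all libraries; open symbols at the bottom stand for libraries with 0 counts, and Ttr, at 0 in all 6, is not drawn. Lrpap1 lies highest, between 47.2 and 127 CPM per kb. Among the in vitro libraries, Amn spans 0 to 7.47, Apoa1 0.263 to 15.8 and Mttp 0 to 0.848 CPM per kb.

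In the comparison of in vitro with in vivo embryos, no gene of the 10 passed the quasi-likelihood test of edgeR, adjusted by Benjamini-Hochberg over all 14301 genes tested. That test called 0% of all genes (smallest adjusted p 0.306). Counts of Cubn, Lrp2, Dab2, Lrpap1, Apoe and Apoa1 were high enough to be tested, and among these 6 the log2 fold change (cultured minus in vivo) was above 0 for 4 and below 0 for 2. Their median was 0.36, against -0.01 over all genes tested; scaled by library totals alone, 3 lay on each side with a median of 0.03, against -0.31 over all genes. At an unadjusted p below 0.05 stood 1 of the 6, Dab2, against 10.2% of all genes in either direction. Limma-voom called none of the 6, against 0.804% of all genes, and DESeq2 called 1 of the 8 genes to which it gave an adjusted p, against 3.00% of all genes. That gene was Amn, which did not pass the filter of the main test, with more than 3 counts only in in vitro replicates 1 and 2. Apob, Mttp and Ttr did not pass that filter either.

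**Figure D2:**
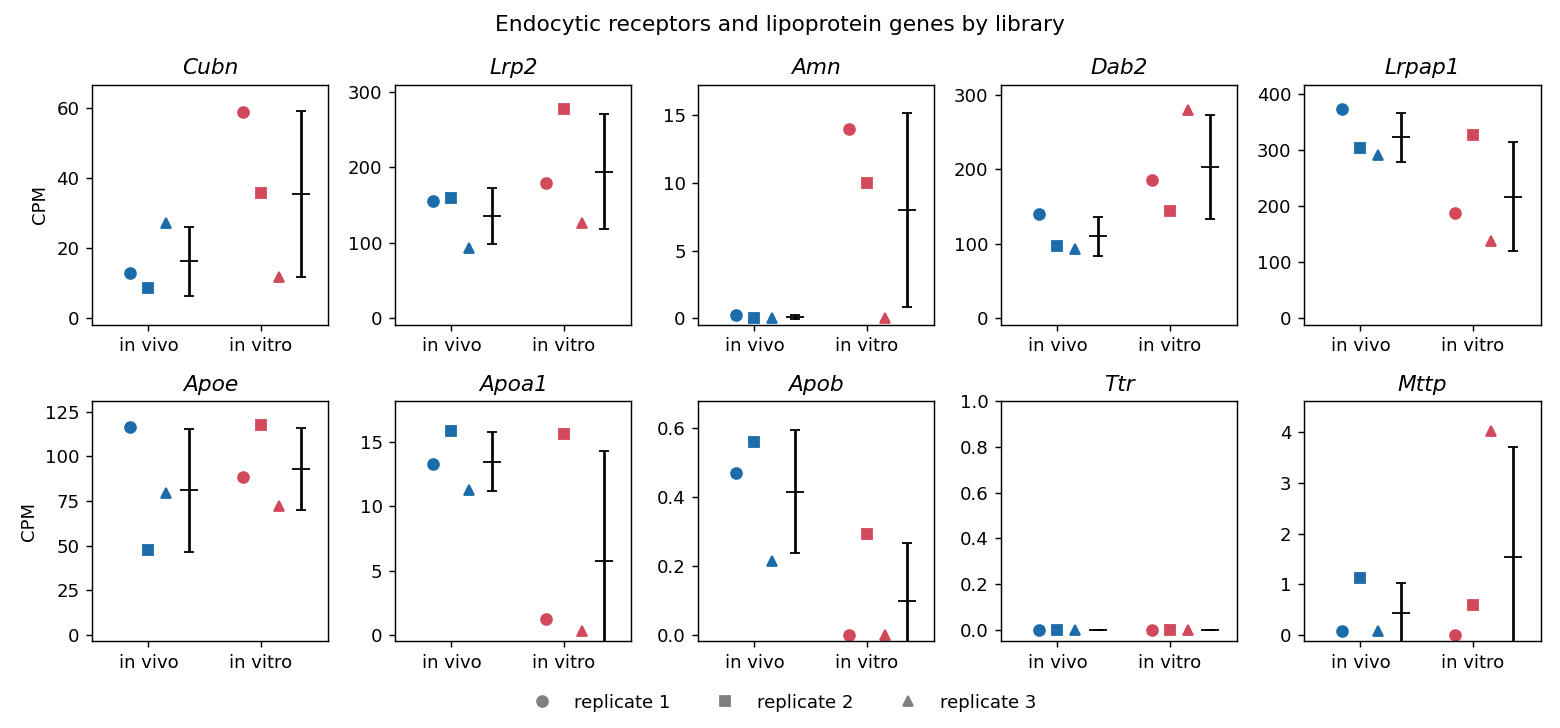
CPM of the 10 genes in each library (points, shaped by replicate) with mean and SD of the 3 libraries per group (black bar and whiskers, which stop at the lower edge of the axis where they pass it); the replicate numbers do not pair libraries across groups. Dab2 has all in vitro values above all in vivo values with this scaling but not with library totals alone, and Amn is near 0 in 4 libraries.

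Amn, which anchors cubilin at the membrane, gave 3, 0 and 0 counts in vivo (replicates 1, 2 and 3) against 80, 137 and 0 after culture. In vitro replicates 1 and 2 therefore carried clear Amn signal at 14.0 and 10.0 CPM, while in vitro replicate 3 was at 0 like the in vivo libraries, so the groups overlapped. Over the groups, 3 counts in vivo stood against 217 in vitro, a ratio of 105 after scaling with a 95% exact counting interval of 35.5 to 513, which covers counting error only. Leaving out single libraries gave 67.7 (in vivo replicate 3) to 147 (in vitro replicate 3), and at least 70.8-fold higher (3 counts over the group) without in vivo replicate 1, which held all 3 in vivo counts. DESeq2 called Amn higher in vitro (log2 fold change 6.71 ± 1.87 SE, adjusted p = 0.0199), as it did 1.65% of all genes. So did edgeR without a filter on low counts (adjusted p = 0.0115), a setting that called 0.656% of all genes higher. Leaving out in vivo replicate 1 ended that DESeq2 call (adjusted p = 0.335), as did leaving out in vivo replicate 2 (0.120), in vitro replicate 1 (0.233) or in vitro replicate 2 (0.0951). The position of Amn is chromosome 12, 111271096 to 111276426 (GRCm38, plus strand). It shares 233 exonic bases with Gm51960 on the opposite strand, which had at most 3 counts in any library.

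Cubn, the receptor that amnionless carries, measured 13.0, 8.54 and 27.3 CPM in vivo, against 58.9, 35.9 and 11.7 CPM after culture. In vitro replicates 1 and 2, the libraries with Amn, were also the highest for Cubn, whereas in vitro replicate 3 lay within the in vivo range. Means were 16.3 ± 9.79 and 35.5 ± 23.6 CPM (SD, n = 3 each), with a log2 fold change of 1.12 ± 0.66 (SE; edgeR adjusted p = 0.604). Leaving out in vitro replicate 1 gave 0.56 (adjusted p = 0.897 by edgeR) and leaving out in vivo replicate 3 gave 1.73 (0.339). Per kb, Amn exceeded Cubn in in vitro replicate 1 (7.47 against 5.20) and replicate 2 (5.35 against 3.17), but in the other libraries it was at 0 to 0.125 while Cubn was at 0.754 to 2.41. Cubilin message was thus present in 4 libraries almost without that of its partner. Cubn (chromosome 2, 13276338 to 13491876, minus strand) shares 369 exonic bases with Gm13270 on the other strand, which had 0 to 40 counts per library. Because strand was not marked in these libraries, reads from such shared stretches cannot be assigned to either gene.

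The gene whose pattern over the 6 libraries was most like that of Cubn was Sparc, a matrix protein gene made in large amounts by endoderm. Among 6849 genes with a mean of at least 10 CPM, its mean-centred log2 CPM differed from that of Cubn by 0.18 (root mean square over the 6 libraries), followed by Dnmt3l (0.19), a cofactor of DNA methylation, and Igf2bp1 (0.27), an RNA-binding protein gene. Sparc measured 150.3, 77.9 and 317 CPM in vivo, against 676, 332 and 105 CPM after culture. The 12 primitive endoderm markers summed to 467, 377 and 1278 CPM in vivo, against 2128, 1338 and 591 CPM after culture, and none was at 0 in all libraries; Sparc is itself 1 of the 12. The highest sums were those of in vitro replicates 1 and 2 and in vivo replicate 3, the same 3 libraries that were highest for Cubn. A list of endoderm transcription factors and a signalling receptor, partly the same genes, summed to 254, 281 and 397 CPM in vivo. After culture that list summed to 629, 520 and 444 CPM. By that list every in vitro library, replicate 3 included, exceeded every in vivo library, unlike the order for Cubn. Whether the amount of primitive endoderm plays a part in the Cubn and Amn values was not tested, and in bulk samples more cells of a type and more RNA per cell cannot be told apart.

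**Figure D3:**
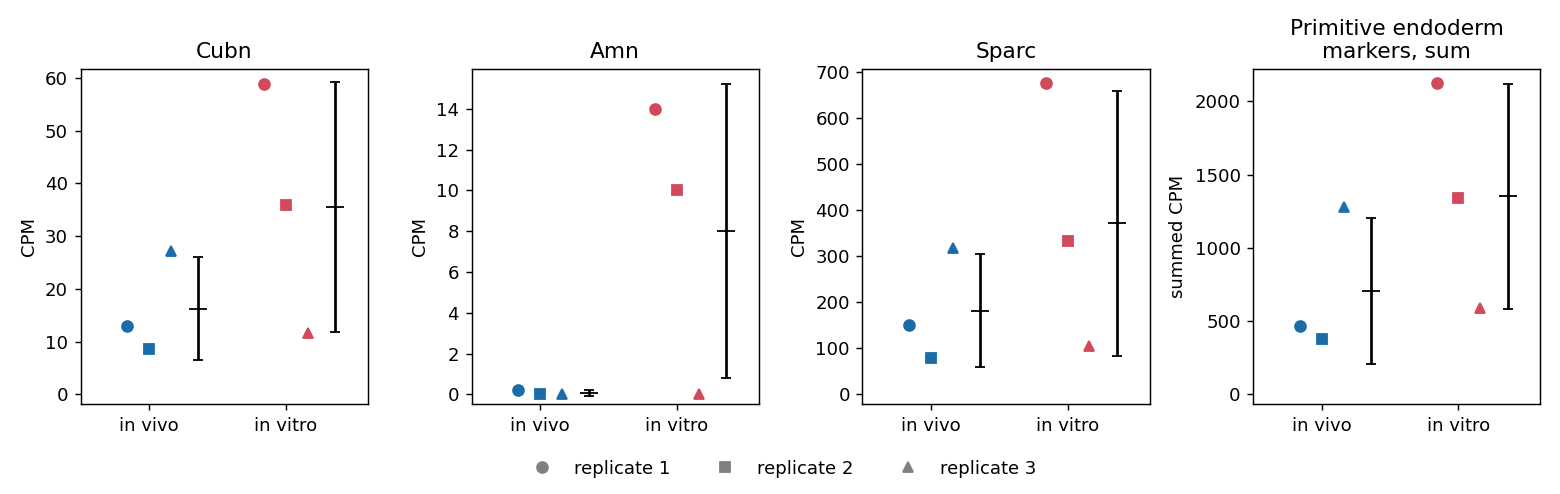
CPM of Cubn, Amn and Sparc and the summed CPM of 12 primitive endoderm markers in each library (points, shaped by replicate), with mean and SD of 3 libraries per group. In vitro replicate 1 is highest in all 4 panels, and in vitro replicate 3 lies within the in vivo range for Cubn, Sparc and the marker sum.

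Lrp2, which encodes megalin, was 2.24 to 13.7 times as abundant per kb as Cubn, depending on the library. Its level was 155, 159 and 93.2 CPM in vivo, against 179.8, 277 and 126 CPM after culture. The groups overlapped through in vitro replicate 3, and the log2 fold change was 0.52 ± 0.38 (SE; edgeR adjusted p = 0.686). The ratio of Lrp2 to Cubn spanned 2.51 to 13.7 in vivo and 2.24 to 7.89 after culture, so the receptors did not hold a fixed proportion. The closest patterns to Lrp2 were those of Pi4k2a (0.06), a lipid kinase gene of endosomes, the chaperone gene Dnajb11 (0.15) and the F-box gene Fbxo15 (0.15). Megalin (chromosome 2, 69424335 to 69586029, minus strand) was highest in in vitro replicate 2, whereas cubilin and the endoderm marker sum were highest in in vitro replicate 1.

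Dab2, the clathrin adaptor for megalin and amnionless and itself widely used as a marker of primitive endoderm, measured 139.9, 96.3 and 92.7 CPM in vivo, against 185, 143 and 279.9 CPM after culture. Every in vitro value exceeded every in vivo value, but the closest 2 were 143 and 139.9. Means were 109.6 ± 26.3 and 203 ± 70.0 CPM (SD, n = 3 each), with a log2 fold change of 0.89 ± 0.35 (SE), an unadjusted p of 0.0332 and an edgeR adjusted p of 0.453. The unadjusted p by edgeR was 0.1098 without in vivo replicate 2, 0.0787 on omitting in vivo replicate 3 and 0.123 on omitting in vitro replicate 3. Of all genes, 5.11% had an unadjusted p below 0.05 with higher values in vitro. Likewise, 9.27% had groups that did not overlap with higher values in vitro, as did 1 of the 6 tested genes here. Scaled by library totals alone, where the median of all genes was -0.31, the groups of Dab2 overlapped and its log2 fold change was 0.48. In vitro replicate 3, the lowest of the in vitro libraries for Cubn, Amn and the endoderm marker sum, was the highest library for Dab2. Its closest patterns were those of Dlat (0.12) and Vdac2 (0.13), genes of mitochondrial proteins, and Sord (0.13), a sorbitol dehydrogenase gene. Dab2 lies on chromosome 15 at 6299788 to 6440715 on the plus strand.

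Lrpap1, the chaperone of megalin and related receptors (chromosome 5, 35091490 to 35105699, minus strand), measured 372, 303 and 292 CPM in vivo, against 187, 326 and 138 CPM after culture. In vitro replicates 1 and 3 were below the in vivo range and in vitro replicate 2 was inside it. The log2 fold change was -0.57 ± 0.36 (SE; edgeR adjusted p = 0.631). Without in vitro replicate 2 it was -1.002, with an adjusted p of 0.338. The ratio of Lrpap1 to Lrp2 per kb, chosen after its values were seen, was 12.7, 10.0 and 16.5 in vivo and 5.48, 6.20 and 5.78 in vitro. The ratio does not depend on how libraries are scaled, and the groups did not overlap, yet 18.2% of tested genes had a ratio to Lrp2 that was lower in vitro without overlap, so it is given as a description.

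Among the lipoprotein genes, Apoa1 (chromosome 9, 46228630 to 46230469, plus strand) split the in vitro libraries. Its level was 13.3, 15.9 and 11.3 CPM in vivo, against 1.22, 15.7 and 0.260 CPM after culture. The counts behind these were 170, 199 and 158, then 7, 214 and 2. In vitro replicate 2 lay inside the in vivo range, and in vitro replicates 1 and 3 were far below it. The log2 fold change was -1.22 ± 1.17 (SE; edgeR adjusted p = 0.771). Without in vitro replicate 2, the library with almost no Y-linked counts, it was -4.21 with an edgeR adjusted p of 0.295. DESeq2 called Apoa1 lower when that library was left out (adjusted p = 0.000550), as it did 3.5% of all genes. Hnf4a, a transcription factor known to act on apolipoprotein genes, measured 9.45, 9.50 and 20.1 CPM in vivo, against 0.175, 1.98 and 1.69 CPM after culture. It was named after its values were seen. In vitro replicate 2 thus had Apoa1 at the in vivo level with Hnf4a below it. Among 7 markers of hepatocytes, which also make Apoa1, Fgb was at 0 in all libraries and Alb in all but in vitro replicate 2 (2.34 CPM), and the sum was 23.3 to 104 CPM in vivo and 4.04 to 23.6 CPM after culture. Most of it was Tat, a tyrosine-degrading enzyme, at 79.3, 103 and 23.3 CPM in vivo, against 3.85, 19.4 and 3.65 CPM after culture. What part these play in the Apoa1 values was not tested.

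**Figure D4:**
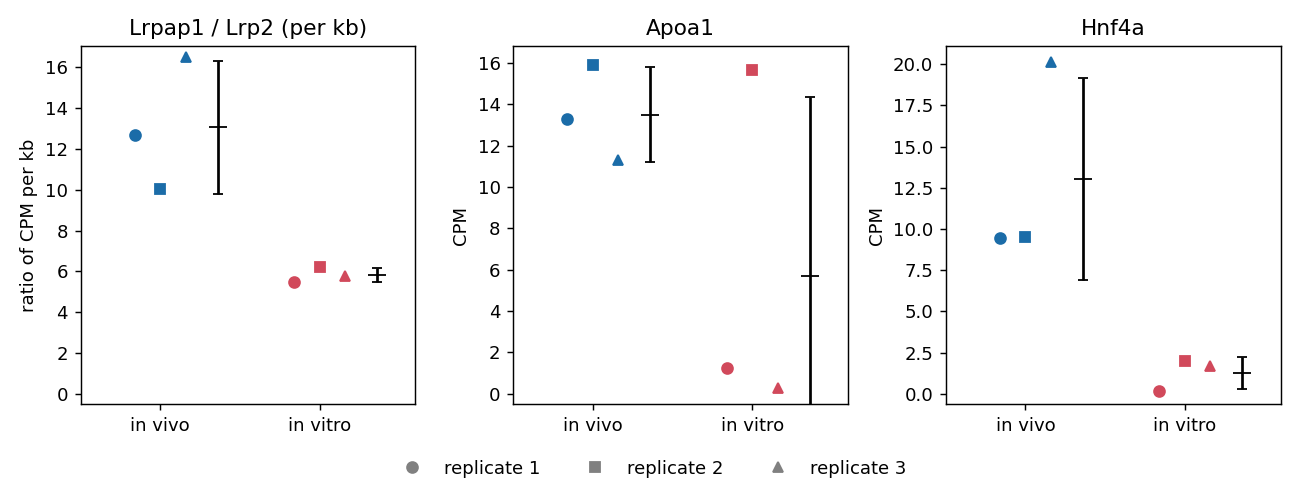
Ratio of Lrpap1 to Lrp2 in CPM per kb, and CPM of Apoa1 and Hnf4a, in each library (points, shaped by replicate) with mean and SD of 3 libraries per group; whiskers stop at the lower edge of the axis. The ratio is 10.0 to 16.5 in vivo and 5.48 to 6.20 in vitro, and in vitro replicate 2 has in vivo levels of Apoa1 but not of Hnf4a.

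Apoe (chromosome 7, 19696244 to 19701310, minus strand) had the log2 fold change of smallest absolute size among the 6 tested genes. It measured 116, 47.3 and 79.3 CPM in vivo, against 88.5, 117 and 72.2 CPM after culture. All in vitro values but 1 lay inside the in vivo range, and the log2 fold change was 0.20 ± 0.40 (SE; edgeR adjusted p = 0.906). Its sign turned with library totals alone (-0.12), and on leaving out in vivo replicate 2 (-0.08) or in vitro replicate 2 (-0.02). Apob (chromosome 12, 7977629 to 8016839, plus strand) gave 6, 7 and 3 counts in vivo, then 0, 4 and 0 after culture, across 13957 bases of gene length, so it was hardly detected. Its scaled ratio of summed counts was 0.363 with a 95% exact counting interval of 0.0883 to 1.13. Omitting in vivo replicate 3 gave 0.288 (0.0684 to 0.932), and all 4 in vitro counts came from in vitro replicate 2, so none was left without it. Mttp (chromosome 3, 138089855 to 138143418, minus strand) gave 1, 14 and 1 counts in vivo, then 0, 8 and 31 after culture. Its summed counts stood at 3.54 times the in vivo level after scaling (95% exact counting interval 1.93 to 6.78), but 31 of the 39 in vitro counts came from in vitro replicate 3. Omitting that library gave a ratio of 1.01 (0.376 to 2.51), and omitting in vivo replicate 2, which held 14 of the 16 in vivo counts, gave 19.3 (4.99 to 165). Ttr had 0 counts in all 6 libraries, which allows up to 0.215 to 0.525 CPM in a library (3 counts). Apob and Mttp, which act together in lipoprotein assembly, had 3 counts or fewer in 3 of the 6 libraries each. Apoa1 had as few as 2 counts in in vitro replicate 3, and Apoe had at least 506 counts in each library.

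The sequence upstream of the start is shown for 3 genes whose levels set the contrast: Amn, above 3 counts in 2 libraries, Apoa1, found in 4 at 11.3 CPM or more, and Apob, at most 7 counts. Each line gives the 250 bases before the start from RefSeq on GRCm38.p6, 5′ to 3′ on the gene's strand. These are chr12:111270846-111271095 (plus strand), chr9:46228380-46228629 (plus strand) and chr12:7977427-7977676 (plus strand). The Apob window runs past 7977629, the first base of the gene as placed above, so it precedes a different start. Capitals mark matches to 4 motifs searched on both strands and chosen with the sequences in view: GATAA of GATA factors, CAAAGTCCA and CAAAGGTCA of HNF4A and related receptors, and CACGTG, an E-box.
Amn: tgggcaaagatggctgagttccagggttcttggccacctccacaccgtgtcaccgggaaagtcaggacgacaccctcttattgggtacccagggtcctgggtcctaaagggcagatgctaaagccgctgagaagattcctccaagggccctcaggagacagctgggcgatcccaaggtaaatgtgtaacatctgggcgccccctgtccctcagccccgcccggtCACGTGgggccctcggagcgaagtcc
Apoa1: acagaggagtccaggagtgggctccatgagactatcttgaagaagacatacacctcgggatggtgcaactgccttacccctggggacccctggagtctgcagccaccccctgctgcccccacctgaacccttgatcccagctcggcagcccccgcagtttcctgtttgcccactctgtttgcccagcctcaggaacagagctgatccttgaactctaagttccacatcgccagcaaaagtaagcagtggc
Apob: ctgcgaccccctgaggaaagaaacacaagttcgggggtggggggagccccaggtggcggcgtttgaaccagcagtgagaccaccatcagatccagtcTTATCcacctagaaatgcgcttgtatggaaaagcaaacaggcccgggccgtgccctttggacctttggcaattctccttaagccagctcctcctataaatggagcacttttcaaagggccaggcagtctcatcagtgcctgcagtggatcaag
Promoter windows of 9 of the genes were searched (12 windows, since Dab2 has 2 starts and Apoe 3). Ttr was left out of this search, so the counts below say nothing of its promoter. CACGTG occurred in 1 window, that of Amn 26 bases before the start, and in 6.02% of 32851 mouse windows of the same length. GATAA occurred in 3, those of Apob, Lrpap1 and 1 start of Dab2, and in 22.6% of all windows. Neither HNF4A motif was found, against 0.384% and 0.426% of all windows. At such rates no match in 12 windows was the likely outcome. An exact search also misses sites that vary in a letter, so it cannot tell whether Apoa1 or the other genes lack HNF4A sites here. A match is a description of the letters and not evidence of binding.

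The wider uptake and lipoprotein genes were described from 5 lists, and no gene in them passed edgeR's test over all genes. Among 28 tested genes of clathrin coats and endosomes, the log2 fold change was above 0 for 22 and below 0 for 6 (median 0.22), but scaled by library totals alone the split was 14 and 14 (median -0.03). Of these, 3 had an unadjusted p below 0.05, against 10.2% of all genes, and 5 had groups that did not overlap, against 19.3%. Cltc, the clathrin heavy chain gene, measured 318, 347 and 186 CPM in vivo, against 393, 474 and 897 CPM after culture (log2 fold change 1.05 ± 0.40 SE, edgeR adjusted p = 0.429), and was highest in in vitro replicate 3 like Dab2. Ocrl, a phosphatase of endosomal lipids whose human counterpart is mutated in Lowe syndrome, was at 19.0 ± 6.90 and 55.7 ± 29.8 CPM. Ap2b1, a subunit of the clathrin adaptor complex AP-2, was at 17.5 ± 1.22 and 32.1 ± 9.51 CPM. The opposite order was seen for Numb, an adaptor with a domain like that of Dab2, at 19.2 ± 10.6 CPM in vivo, against 3.01 ± 2.83 CPM after culture (SD, n = 3 each; edgeR adjusted p = 0.415).

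The other lipoprotein receptors showed no common direction. Of 11 tested genes, 5 lay above and 6 below 0 on the log2 scale (median -0.58). Lrp6, a Wnt coreceptor, was at 15.6 ± 5.99 CPM in vivo, against 20.4 ± 9.23 CPM after culture, and Lrp10 was at 25.2 ± 4.65 and 16.8 ± 18.9 CPM (SD, n = 3 each). Scarb2, a lysosomal membrane protein gene, was at 28.3 ± 7.59 and 34.0 ± 23.5 CPM. Scarb1, the receptor for high density lipoprotein, and Sorl1 were named after their values were seen. Scarb1 measured 8.28, 8.22 and 31.1 CPM in vivo, against 2.80, 3.95 and 1.82 CPM after culture, and was called lower by DESeq2 (adjusted p = 0.0474) but not by edgeR (0.398). Sorl1, a sorting receptor, measured 1.17, 1.68 and 0 CPM in vivo, against 13.8, 7.39 and 8.07 CPM after culture (edgeR adjusted p = 0.453).

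No other gene of apolipoproteins or lipoprotein assembly was called by edgeR or DESeq2. Of 28 genes of that list 13 did not pass the filter of the main test. Of the 15 tested 7 lay above and 8 below 0 on the log2 scale (median -0.06, and 4 and 11 with library totals alone). Apoc1, a small exchangeable apolipoprotein gene next to Apoe, was at 95.3 ± 51.2 CPM in vivo, against 66.3 ± 17.99 CPM after culture. Dgat1, which makes triglyceride, was at 28.6 ± 17.9 and 10.2 ± 7.30 CPM, Surf4, a cargo receptor for lipoprotein export, at 76.7 ± 12.9 and 52.9 ± 31.8 CPM, and the sterol exporter gene Abcg1 at 13.9 ± 6.50 and 7.94 ± 5.83 CPM. Of 21 genes of cargo, binding proteins and the uptake of vitamins, iron and retinol, 7 were tested, and intrinsic factor (Cblif), Afp and Rbp4 had 0 counts in all libraries. The folate receptor gene Folr1 (67.7 ± 36.1 and 44.1 ± 44.5 CPM), the transferrin receptor gene Tfrc (30.2 ± 8.96 and 47.9 ± 18.02 CPM) and the cobalamin carrier gene Tcn2 (19.2 ± 4.86 and 15.6 ± 9.80 CPM) were among the 7 tested, of which 2 lay above and 5 below 0 on the log2 scale (median -0.29). Mmachc, which processes cobalamin in the cytosol, was at 10.6 ± 9.18 and 13.2 ± 5.99 CPM (SD, n = 3 each).

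Of the transcription factors of endoderm and a signalling receptor, 11 of 13 tested genes had positive log2 fold changes (median 0.96, and 0.68 with library totals alone). The groups did not overlap for 6 that were higher and 1 that was lower in vitro, against 19.3% of all genes in either direction. Gata6, which specifies primitive endoderm, measured 81.3, 116 and 130 CPM in vivo, against 158, 205 and 163 CPM after culture, and Gata4 measured 10.7, 0.319 and 9.24 CPM in vivo, against 42.3, 46.2 and 10.8 CPM after culture. In vitro replicates 1 and 2, which held Amn, were the highest for Gata4, and in vitro replicate 3 barely exceeded in vivo replicate 1. The nuclear receptor genes Nr5a2 (24.8 ± 3.26 and 52.2 ± 28.7 CPM) and Esrrb (38.7 ± 9.38 and 62.0 ± 34.2 CPM) had adjusted p-values of 0.474 and 0.643 by edgeR. Esrrb was also listed here as a marker of epiblast, so the counts and median of this list are not of endoderm alone. DESeq2 called 3 of the 14 genes of this list, Sox7 and Foxa2 higher and Hnf4a lower, against 3.00% of all genes in either direction. They were named after their values were seen. Limma-voom also called Sox7 and Foxa2 (adjusted p = 0.0392 and 0.0491), against 0.804% of all genes in either direction. EdgeR without a filter on low counts called Sox7, Foxa2 and Gata4 higher (adjusted p = 2.7e-08, 6.9e-07 and 0.0379), against 0.656% of all genes. Neither called Hnf4a (adjusted p = 0.165 by limma-voom and 0.0913 by edgeR without a filter). Sox7 had 0, 0 and 1 counts in vivo and 112, 425 and 32 in vitro. Foxa2, an activator of endodermal genes, had 0 counts in vivo and 196, 54 and 22 in vitro, so unlike Amn it was also found in in vitro replicate 3.

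**Figure D5:**
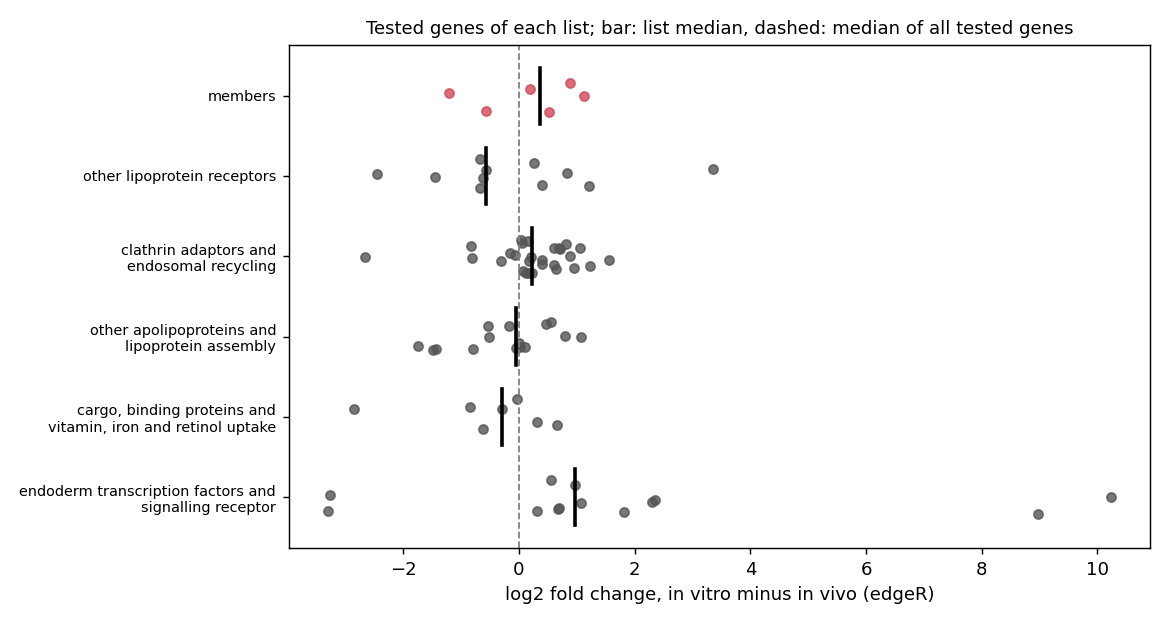
Log2 fold change (edgeR, in vitro minus in vivo) of each tested gene among the endocytic receptors and lipoproteins (top row, 6 genes) and in 5 lists of related genes, one point per gene with vertical jitter; black bars are medians and the dashed line is the median of all tested genes (-0.01). The 6 genes spread from -1.22 to 1.12, and the list of endoderm factors, which includes Esrrb, has the highest median, 0.96.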

How the data were processed

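Total RNA of 6 samples went into libraries by transposase tagging, per the labels' protocols, and such libraries carry no strand information. Raw gene counts for all 6 were deposited by the authors in 1 table, beside gene lengths and coordinates. Its coordinates equal those of RefSeq on GRCm38.p6 for all 47937 genes compared, whereas the submitters' processing notes name GRCm39, FastQC 0.11.2 and DESeq2. No source used here names the aligner or counter.

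Counts were fitted in edgeR 4.0.16 (R 4.3.3) after its filter on low counts by group and scaling by trimmed mean of M values, and tested by quasi-likelihood F (legacy fit, robust moderation), adjusted by Benjamini-Hochberg over 14301 genes at a threshold of 0.05. The fitted common biological coefficient of variation was 0.727. Standard errors derive from the F statistic. CPM are on scaled totals, and profiles used log2 CPM with 2 counts added. Alternatives were limma 3.58.1 (voom, quality weights), DESeq2 1.42.0, other scalings and filters, each library left out, and a replicate block. The DESeq2 fits leaving out each library were added after the data were seen. The edgeR, DESeq2 and limma fits were tested on simulated counts with known changes, where DESeq2 called more unchanged genes than the other tools did. Those counts were drawn with edgeR's own dispersions or a fixed one, for genes past its filter. Amn was not among them, so that check does not bear on its DESeq2 call.

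The genes and the 5 lists (107 symbols, all in the table) were chosen with earlier results of these data known. Named were all 10 genes, from each list up to 4 of smallest p with a mean of at least 10 CPM, and for Cubn, Lrp2 and Dab2 the 3 genes of nearest pattern without a predicted or clone name; other names are said to be outside this rule. One gene that the rule names is not reported here. Intervals and floors cover counting error only.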

Additional observations from a re-analysis of the deposited data

How the results depend on the processing

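Apart from the DESeq2 fits that leave out a library, the 6 tested genes had 96 values under the alternatives, of which 93 had the direction of the main value and none passed the threshold. The 3 others were those of Apoe, at -0.12 with library totals alone and at -0.084 and -0.024 without in vivo replicate 2 and in vitro replicate 2; with any 1 library left out, Apoe lay between -0.084 and 0.537. Over all genes, edgeR called 0 genes, with 1458 at an unadjusted p below 0.05. DESeq2 called 473 genes, limma-voom 115, edgeR without a filter 391 and edgeR's newer form 3. With 1 library left out, DESeq2 called 310, 152 and 938 genes (without in vivo replicates 1, 2 and 3) and 264, 855 and 373 (without in vitro replicates 1, 2 and 3). Among the 10 genes, DESeq2 called 1 and edgeR without a filter 1 (Amn in each), DESeq2 0 to 1 with 1 library left out (Amn without in vivo replicate 3 or in vitro replicate 3, Apoa1 without in vitro replicate 2), and 1 (Dab2) had an unadjusted p below 0.05. The cause was not tested. With the replicate block edgeR called 0 genes. After each gene's group mean was subtracted from its log2 CPM, same-numbered libraries correlated at -0.10, 0.10 and -0.04, so the numbers were not used to pair them. Under the block, Apoa1 was at -2.87 and the 5 other tested genes at -0.66 to 1.12. Precision was limited by 3 libraries a group with a biological coefficient of variation of 0.727 and, for Apob, Mttp and Ttr, also by low counts. For Amn it was also limited because only in vitro replicates 1 and 2 had more than 3 counts.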
